A study of Mus musculus with 2 samples.

Results

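Late condensing spermatids were the testis barcodes in which transcripts of Smcp, Tppp2, Lelp1 and Spem2 took the greatest share of the RNA. They numbered 2882 of 38009 barcodes, with 1356 of 20601 in the Dot1L cKO library and 1526 of 17408 in the control library. A barcode is the droplet label that stands for a cell. Members had 1500 or more UMIs (unique molecular identifiers, 1 per captured RNA molecule), at most 10% mitochondrial UMIs and at most 2 UMIs of Piwil1, a piRNA-binding protein of spermatocytes and round spermatids. Their UMI share of the 4 late genes was also 4 or more times the share in the UMIs of all barcodes of both libraries, which was 0.402%. The members were thus chosen by the measured levels of the 4 late genes, Piwil1 and mitochondrial genes, so these are described below and not compared as results. Transition protein and protamine genes took no part in the choice.

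The Dot1L cKO (conditional knockout) library came from whole testis of Dot1L fl/delta mice with Ddx4-Cre, and the control library from Dot1L fl/+ mice without Cre. Both genotypes therefore carry a floxed allele, the other allele is deleted in all cells of the cKO and wild type in the control, and Cre is driven by a germ cell gene. DOT1L is the methyltransferase of lysine 79 of histone H3. The study asked about the role of DOT1L in spermatid differentiation and in the replacement of histones by protamines. Each genotype had 1 droplet 3′ library, and the number and age of the animals are not given in the sources used here.

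In the last steps of spermatogenesis the spermatid nucleus condenses. Histones are exchanged for transition proteins and then for protamines, small basic proteins that pack the DNA of the sperm head. Transcription stops during condensation, so the RNA of late spermatids is largely stored RNA that is translated and then lost with the residual cytoplasm. Smcp encodes a selenium-binding protein of the sperm mitochondrial capsule, Spem2 belongs to a spermatid maturation gene cluster, and Car2 encodes a carbonic anhydrase.

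With 1 library per genotype no test was possible, and every difference below is between 2 libraries without a replicate check. Intervals in parentheses are exact 95% intervals that cover counting error only. Levels are given as CPM, the UMIs summed over members and scaled to a total of 1000000. The assay counts 3′ ends, so a level is not scaled by transcript length, and ratios between genes are compared only from library to library. Log2 ratios are cKO over control. The libraries were of similar size, with 156518838 UMIs in the cKO and 155487418 in the control. They shared 102 barcode sequences, none of them a member in both, and 6 cKO members and 6 control members had a sequence that was also present in the other library. Free RNA was gauged in barcodes that carried markers of Leydig cells, macrophages, mesenchymal or endothelial cells, 477 in the cKO and 133 in the control, and their values are given beside those of the transition protein and protamine genes and of some other genes. Such cells can also express a gene themselves, and for genes not limited to germ cells free RNA and their own RNA cannot be told apart there. No caller of doublets was run.

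Dot1l itself could not be judged in these cells. It had 10 UMIs in cKO members and 34 in control members, or 1.55 CPM in cKO and 4.66 CPM in control, and a UMI in 0.737% of cKO and 2.23% of control members. In the somatic marker barcodes the shares were 6.499% in the cKO and 10.5% in the control, at lower median depths of 2299 UMIs in the cKO and 1914 UMIs in the control. Somatic cells may express Dot1l themselves, and whether the members' UMIs were free RNA was not tested. In barcodes with at most 2 Piwil1 UMIs, not sorted by cell type, Dot1l was lower in the cKO at low late gene shares. Its log2 ratio was -2.03 (-2.16 to -1.90) under 0.25 times the pooled share, from 647 UMIs in cKO and 2363 in control. It was -2.53 at 0.25 to 1 times, -1.72 at 1 to 2 times and -0.26 (-1.01 to 0.47) at 2 to 4 times. The sources do not name the deleted exon, and counts of the 3′ end do not check the deletion.

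The marker that the rule did not use followed the label. Car2 had 1858 CPM in cKO members and 2147 CPM in control members, a log2 ratio of -0.21 (-0.24 to -0.17), and at least 1 UMI in 97.7% of members of each library. In somatic marker barcodes the shares were 18.2% in the cKO and 22.6% in the control. Against the next lower band of late gene share, 2 to under 4 times the pool, Car2 was higher in members by 1.14 (log2) in the cKO and 1.25 in the control. The 4 rule genes ranged from 613 CPM (Spem2) to 18259 CPM (Smcp) in cKO members and from 749 to 20270 CPM in control members. Their median log2 ratio was -0.06, with Spem2 the lowest at -0.29 and Lelp1 the highest at 0.10. The rule set a floor under their summed share in both libraries, so these ratios are a description and not a result.

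The 8 elongating spermatid markers, which include Tnp1, Tnp2, Prm1 and Prm2, were high in members. They summed to 188499 CPM in cKO and 245125 CPM in control members, against 228805 CPM in cKO and 314607 CPM in control in the next lower band. Markers of the remaining cell types were low but present. The 9 round spermatid markers summed to 521 CPM in cKO and 334 CPM in control members, and none of them was at 0. That was under the 679 CPM in cKO and 543 CPM in control somatic marker barcodes. The 10 pachytene to secondary spermatocyte markers summed to 622 CPM in cKO and 589 CPM in control, led by Nme8 (302 CPM in cKO and 340 CPM in control), against 4017 CPM in cKO spermatocyte barcodes and 3919 CPM in control spermatocyte barcodes, those with more than 2 Piwil1 UMIs. The 10 early spermatocyte markers summed to 106 CPM in cKO and 76.8 CPM in control and the 11 spermatogonium markers to 25.1 CPM in cKO and 23.7 CPM in control. Among somatic types, the 12 Sertoli cell markers were the most visible, with 416 CPM in cKO and 290 CPM in control members, and all 12 had UMIs. A Sertoli marker UMI was present in 51.8% of cKO and 42.9% of control members, led by Cst9 (112 CPM in cKO and 91.4 CPM in control). Leydig markers summed to 26.8 CPM in cKO and 8.09 CPM in control, macrophage markers to 83.2 CPM in cKO and 78.2 CPM in control, of which C1qb made up 70.2 CPM in cKO and 76.3 CPM in control, mesenchymal markers to 8.06 CPM in cKO and 7.68 CPM in control and endothelial markers to 16.6 CPM in cKO and 14.5 CPM in control. Erythroid markers reached 3.101 CPM in cKO and 0.960 CPM in control and epididymal markers 0.465 CPM in cKO and 0.960 CPM in control. The part of these RNAs in the results below was not tested.

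Whether the cKO testis held fewer late condensing spermatids depended on what they were counted against. Members were 11.99% (11.4 to 12.6) of the cKO and 15.8% (15.05 to 16.5) of the control barcodes that passed the depth and mitochondrial limits, 11305 in the cKO and 9678 in the control, a log2 ratio of -0.39 (-0.50 to -0.29). Among spermatid barcodes with a late gene share of 1 time the pool or more, members were 33.1% in the cKO (31.6 to 34.5) and 33.1% in the control (31.7 to 34.5), a log2 ratio of -0.00 (-0.11 to 0.11). The deficit was thus present against all barcodes that passed the limits. It was not seen at this threshold among barcodes of 1 time the pool or more, members included. Of those, 4099 in the cKO and 4610 in the control, 404 cKO and 560 control barcodes lay at 8 times and over. When each library was held to its own pooled late gene share, the first ratio was -0.07. In dissociated tissue such shares also follow which cells survive, which was not tested.

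The threshold cut through a continuous range. Just inside it, at 4 to 4.5 times the pool, lay 213 cKO and 170 control barcodes, and just outside, at 3.5 to 4 times, lay 250 cKO and 207 control barcodes. Within members the late gene multiple had a median of 6.29 in the cKO and 6.99 in the control, with highest values of 22.2 in the cKO and 33.4 in the control. Bands of 4 to 6, 6 to 8, and 8 times and over held 625, 327 and 404 cKO cells, and 554, 412 and 560 control cells. The lowest band thus took 46.1% of cKO and 36.3% of control members.

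Members carried little RNA, and cKO members spread it over more genes. The median was 3914.5 UMIs in cKO and 4120 UMIs in control members, against 8400 UMIs in cKO and 11157.5 UMIs in control barcodes of the next lower band. UMIs dropped with the late gene multiple in both libraries, with Spearman correlations over cells of -0.52 in the cKO and -0.66 in the control, given as a description because the UMI total is the denominator of the multiple. The medians were 5259, 4009 and 2446.5 UMIs in the 3 bands of the cKO and 6030, 4222.5 and 2969.5 UMIs in those of the control. After each cell was thinned to 1500 UMIs, with no member left out as too shallow, the median number of genes was 642.5 in cKO members (quartiles 605 and 696.25) and 545 in control members (quartiles 519 and 580.75). Unthinned, the medians were 1206 genes in cKO and 1059 in control members. The thinned gene number was higher in the cKO in all 3 bands and in the next lower band. It was also higher in the cKO at lower late gene shares, with 1057 genes against 1022 under 0.25 times the pool. The mitochondrial share, which can mark damaged cells, had a median of 0.889% in cKO and 0.520% in control members, and its part in the gene number was not tested.

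**Figure D1:**
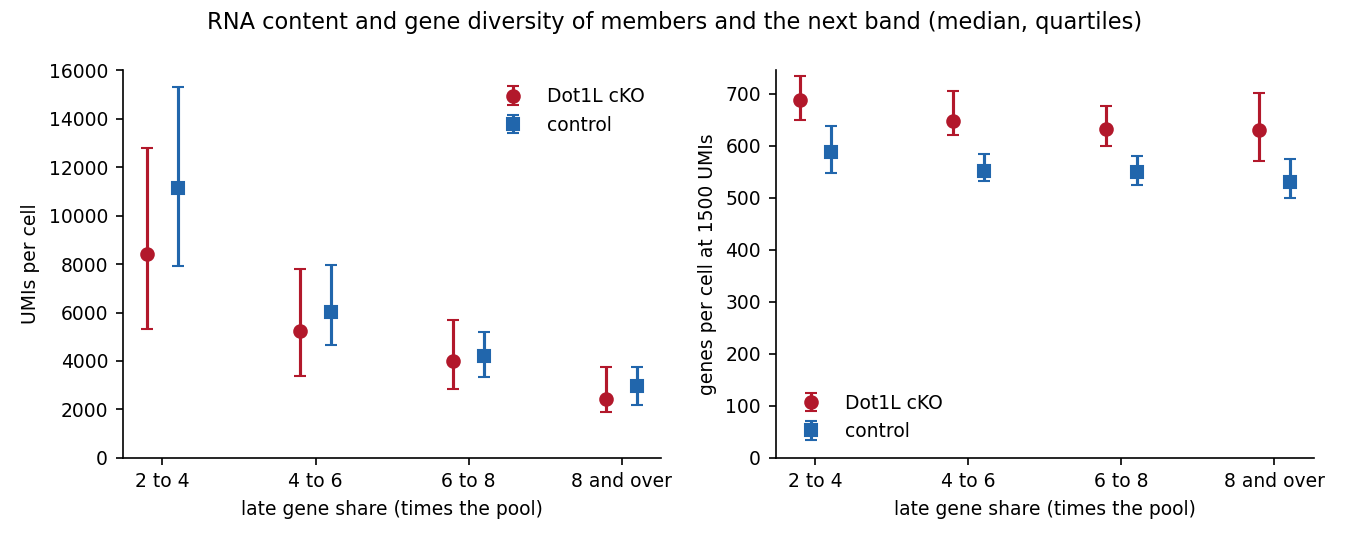
UMIs per cell (left, in UMIs) and genes per cell after thinning to 1500 UMIs (right, in genes) for 4 bands of late gene share, with Dot1L cKO in red left of control in blue, points at medians and bars at quartiles. UMIs drop with the late gene share in both libraries, and the thinned gene number lies higher in the cKO in each band, 642.5 against 545 over all members.

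RNA of the transition protein and protamine genes was a smaller part of all RNA in cKO members, with the lowest ratio at Prm1. Tnp1, Tnp2, Prm1 and Prm2 together made up 17.7% of the UMIs of cKO members and 23.2% of those of control members, a log2 ratio of -0.38 (-0.39 to -0.38). In single cells the share had a median of 16.9% in the cKO (quartiles 14.3 and 19.1) and 21.8% in the control (quartiles 19.8 and 24.0), so the upper quartile of the cKO lay under the lower quartile of the control. In the next lower band the pooled share was 22.3% in the cKO and 30.8% in the control, with a log2 ratio of -0.47. Somatic marker barcodes, which read free RNA, held 1.81% in the cKO and 2.95% in the control, with a log2 ratio of -0.71. With this share subtracted from that of members in each library the log2 ratio was -0.34, and with the log2 ratio itself subtracted it turned to 0.32. The latter takes no account of level, so it does not gauge the part of free RNA. The part of free RNA in the difference was not tested further.

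Prm1, a protamine of all mammals, had 34978 CPM in cKO members and 62015 CPM in control members, a log2 ratio of -0.83 (-0.83 to -0.82). The difference was of like size in the 4 to 6 band (52195 CPM in cKO and 101379 CPM in control), the 6 to 8 band (12983 CPM in cKO and 30426 CPM in control) and the band of 8 times and over (6946 CPM in cKO and 13842 CPM in control), with log2 ratios of -0.96, -1.23 and -0.99. In both libraries Prm1 declined steeply as the late gene share went up, with a Spearman correlation over members of -0.73 in the cKO and -0.81 in the control. In the next lower band the log2 ratio was -0.75, and in somatic marker barcodes it was -1.04, at 5855 CPM in the cKO and 12015 CPM in the control. The band of 8 times and over thus lay little above the somatic marker barcodes in level and had a like ratio.

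Prm2, the second protamine of mice, is made as a precursor that is processed in the nucleus. It had 131580 CPM in cKO members and 158210 CPM in control members, a log2 ratio of -0.27 (-0.27 to -0.26). Unlike Prm1 it was higher in members than in the next band, by 0.71 in the cKO and 0.79 in the control. Across the 3 bands it held at 122602, 152282 and 134756 CPM in the cKO and at 140141, 175159 and 177795 CPM in the control, with log2 ratios of -0.19, -0.20 and -0.40. Somatic marker barcodes held far less, with 6758 CPM in the cKO and 9262 CPM in the control, at a log2 ratio of -0.45.

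The balance of the protamine transcripts therefore differed between the libraries. Members had 0.266 Prm1 UMIs per Prm2 UMI in the cKO (0.265 to 0.267) and 0.392 in the control (0.391 to 0.393). The next lower band had 0.917 in the cKO and 1.36 in the control. By band of members the value was 0.426, 0.0853 and 0.0515 in the cKO and 0.723, 0.174 and 0.0779 in the control. It was lower in the cKO in each of these bands, though at 8 times and over the Prm1 level behind it was near that of somatic marker barcodes. The lower value was not particular to members. Under 0.25 times the pool it was 1.099 in the cKO and 1.355 in the control. In somatic marker barcodes the log2 ratio was likewise lower for Prm1 (-1.04) than for Prm2 (-0.45). The part of free RNA in this balance was not tested.

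Transition proteins occupy the nucleus between histones and protamines, and their transcripts were largely gone from members. Tnp2 was lower than in the next band by 2.80 (log2) in the cKO and 2.91 in the control. It had 6127 CPM in cKO and 7126 CPM in control members, a log2 ratio of -0.22 (-0.24 to -0.20), and log2 ratios of -0.32, -0.30 and -0.25 in the 3 bands. Somatic marker barcodes held 3362 CPM in the cKO and 4899 CPM in the control, a log2 ratio of -0.54. In the 6 to 8 band Tnp2 had 3439 CPM in the cKO and 4233 CPM in the control, and at 8 times and over 3719 CPM in the cKO and 4431 CPM in the control, so it lay close to or under the somatic level there. Tnp1 was lower than in the next band by 2.50 in the cKO and 3.21 in the control.

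Tnp1 gave no single direction, and in the upper bands it lay under the level of somatic marker barcodes. It had 4670 CPM in cKO members and 4248 CPM in control members, a log2 ratio of 0.14 (0.11 to 0.16). In the 4 to 6 band it had 6739 CPM in the cKO and 5921 CPM in the control, a log2 ratio of 0.19 (0.16 to 0.21), while the ratio was -0.75 (-0.82 to -0.68) in the 6 to 8 band and -0.41 (-0.48 to -0.34) at 8 times and over. The levels behind the negative ratios were 1480 CPM in the cKO and 2488 CPM in the control at 6 to 8 times, and 1980 CPM in the cKO and 2633 CPM in the control at 8 times and over. They lay under the 2112 CPM in the cKO and 3352 CPM in the control of somatic marker barcodes, whose log2 ratio was -0.67, and are not read as a difference between members. The next lower band had 26344 CPM in cKO and 39422 CPM in control, a log2 ratio of -0.58. Inside the 4 to 6 band, the 5 to 6 range was lower in the cKO, with a pooled 2472.5 CPM in cKO and 3084.6 CPM in control. Within the 4 to 5 range the median cell had 2918 CPM in the cKO and 3140 CPM in the control, below the pooled 9033 CPM in cKO and 7690 CPM in control, and the 95th percentile of these cells stood at 26881 CPM in the cKO and 30387 CPM in the control.

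The ratios of Tnp1 and Tnp2 changed with how the threshold was set. Relative to the median ratio of all genes, 0.37 and described below, Tnp1 was at -0.24 and Tnp2 at -0.59. With each library's own pooled share as the base of the threshold, Tnp1 was at 1.01 and Tnp2 at 0.36. With transition protein and protamine genes left out of the UMI totals behind the late gene share, they were at -1.26 and -1.27. Prm1, at -1.2004, was at -0.53 and -1.44 under these settings. With the ratio of somatic marker barcodes subtracted, the values relative to the median were 0.47 for Tnp1, -0.0062 for Tnp2, -0.12 for Prm1 and -0.14 for Prm2, all within 1.5-fold of it. Subtracting a ratio takes no account of level. Prm2 had 6758 CPM in cKO and 9262 CPM in control somatic marker barcodes, against 131580 CPM in cKO and 158210 CPM in control members.

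**Figure D2:**
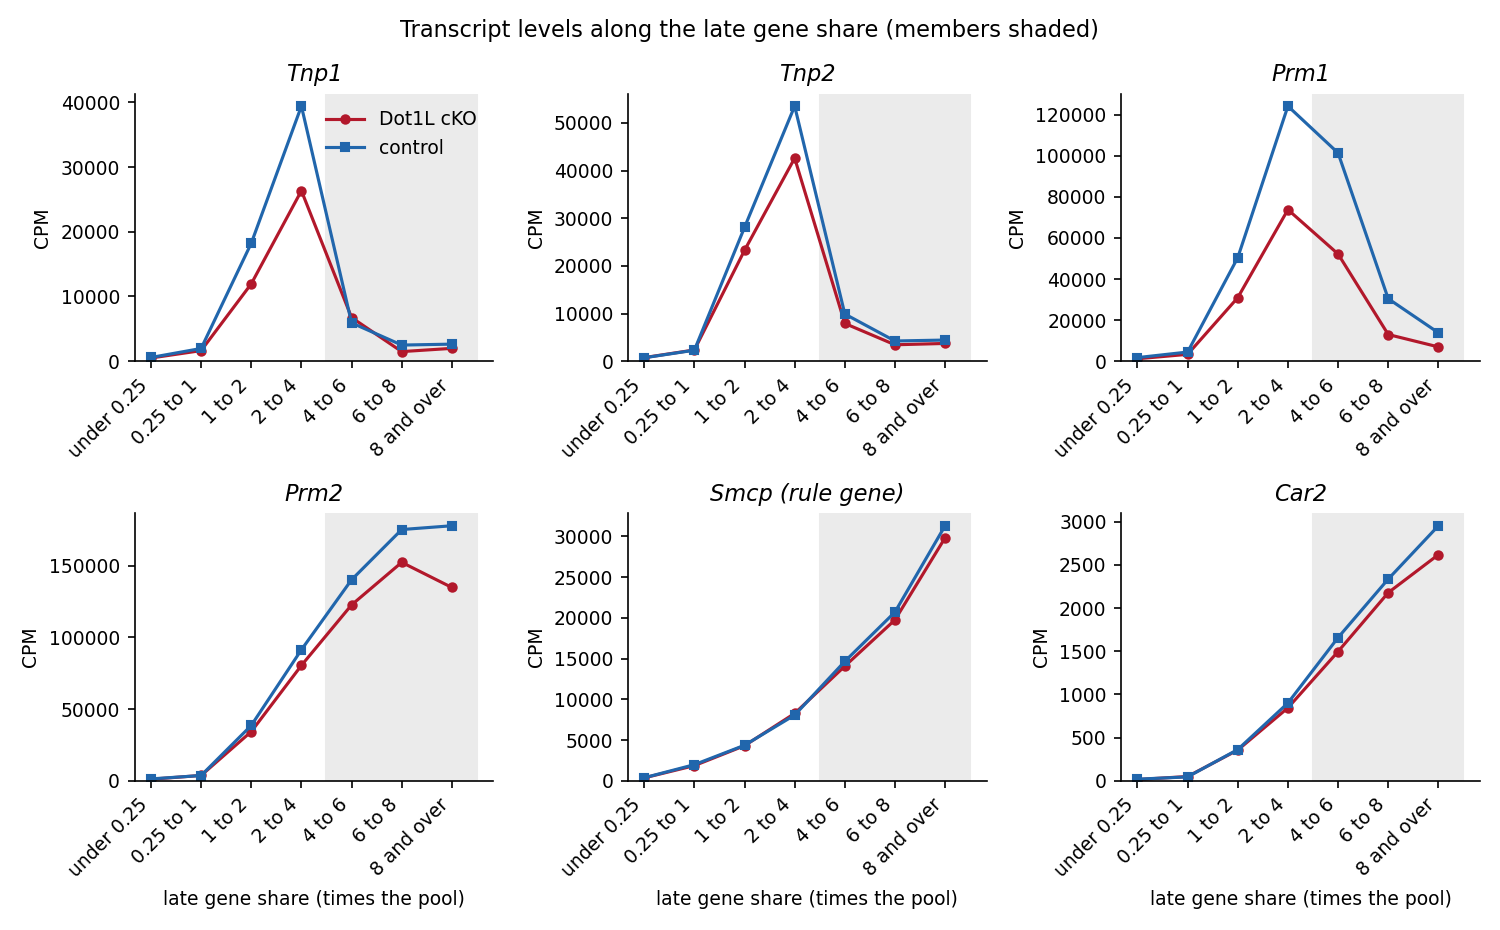
Levels of 6 transcripts (CPM) in bands of late gene share from under 0.25 to 8 and over times the pool, with Dot1L cKO as red circles, control as blue squares and members shaded grey. Prm1 lies lower in the cKO in every band of members (52195 against 101379 CPM in the lowest), Tnp1 lies higher in the cKO only at 4 to 6 times, and Smcp, a gene of the rule, and Car2 rise in both libraries.

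**Figure D3:**
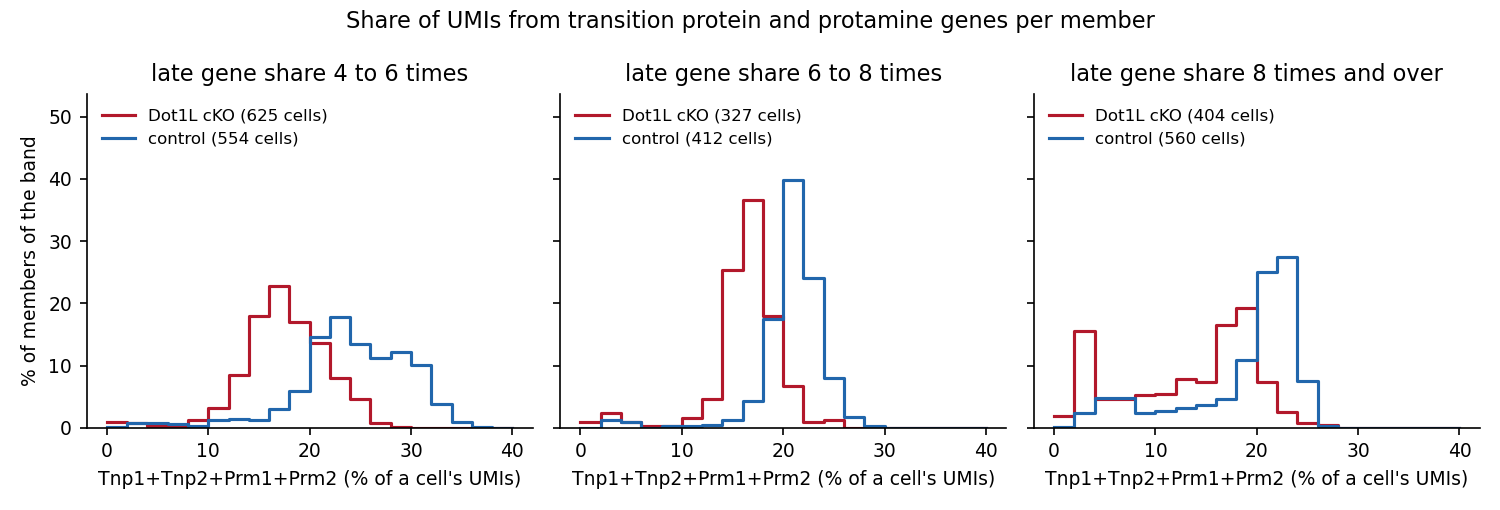
Distribution over members of the share of a cell's UMIs from Tnp1, Tnp2, Prm1 and Prm2 (x axis, percent, in steps of 2), as a percentage of the cells of each of 3 late gene bands, with Dot1L cKO in red and control in blue. The cKO curve lies left of the control curve in each band (medians 17.6%, 16.9% and 15.1% in the cKO, and 24.2%, 21.1% and 20.9% in the control). At 8 times and over both curves reach under 10%, with no gap at that value.

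Promoter sequences are shown for Prm1, Prm2 and Tnp1 because their transcripts took different courses. Each is the 250 bases before the RefSeq start (GRCm38.p6), 5′ to 3′ on the minus strand, at chr16:10796824-10797073 for Prm1, chr16:10792106-10792355 for Prm2 and chr1:73015900-73016149 for Tnp1. Prm1 and Prm2 belong to the protamine cluster with Prm3 and Tnp2, and both windows lie inside the longer GENCODE vM21 spans of these genes, whose annotated ends reach further upstream. Capitals mark matches to TGACNTCA, a spelling of the cyclic AMP response element, or to TATAAA, a spelling of the TATA box, on either strand.
Prm1: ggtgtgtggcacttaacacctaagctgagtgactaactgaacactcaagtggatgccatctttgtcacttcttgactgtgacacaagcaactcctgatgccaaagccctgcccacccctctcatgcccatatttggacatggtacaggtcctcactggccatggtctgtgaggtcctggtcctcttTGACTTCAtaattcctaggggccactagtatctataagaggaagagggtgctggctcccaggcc
Prm2: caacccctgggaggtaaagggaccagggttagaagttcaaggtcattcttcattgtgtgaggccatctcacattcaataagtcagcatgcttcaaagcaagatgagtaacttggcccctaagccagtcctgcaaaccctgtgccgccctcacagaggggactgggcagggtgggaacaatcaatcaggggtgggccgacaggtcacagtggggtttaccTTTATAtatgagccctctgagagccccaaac
Tnp1: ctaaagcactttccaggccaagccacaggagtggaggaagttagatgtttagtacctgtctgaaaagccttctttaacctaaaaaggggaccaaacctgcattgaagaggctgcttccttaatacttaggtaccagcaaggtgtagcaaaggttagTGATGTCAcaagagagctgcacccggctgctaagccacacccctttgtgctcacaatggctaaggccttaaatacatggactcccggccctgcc
Prm1 held TGACNTCA on the printed strand, beginning 64 bases before the start, and Tnp1 held it on the opposite strand, in a stretch that begins 94 bases before the start. Prm2 held no TGACNTCA, and held TATAAA on the opposite strand 31 bases before the start. TGACNTCA occurred in 7.49% and TATAAA in 12.4% of 32851 mouse promoter windows of this length, and no matches overlapped here. Such matches describe letters only.

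The rest of the transition protein and protamine list included Prm3, a protamine-like gene of the same cluster, with 2437 CPM in cKO and 3306 CPM in control members, a log2 ratio of -0.44 (-0.47 to -0.41). In somatic marker barcodes its log2 ratio was -0.80. The list also held H1fnt, a testis linker histone, with 818 CPM in cKO and 805 CPM in control members (log2 0.02), and Hils1, a spermatid linker histone-like gene, with 479 CPM in cKO and 409 CPM in control (log2 0.23), both within 1.5-fold of the centre described below. Tnp2, Prm1, Prm2 and Prm3 were the 4 of 7 measured genes of the list that lay past 1.5-fold below the median ratio of all genes, where 11.2% of all genes lay. That limit was a log2 ratio of -0.21, and Tnp2 (-0.22) and Prm2 (-0.27) lay close to it. None lay past 1.5-fold above it, where 13.6% of all genes lay.

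Some members with high late gene shares held few transition protein or protamine UMIs. Under 10% of UMIs came from these 4 genes in 168 cKO members (12.4%, 10.7 to 14.3) and 105 control members (6.88%, 5.66 to 8.27), a limit chosen after the values were seen. They were shallow, with medians of 1959 UMIs in the cKO and 1802 in the control, and their median late gene multiples were 11.95 in the cKO and 12.85 in the control. Sertoli markers summed to 1562 CPM in these cKO members and 2033 CPM in these control members, against 346 CPM in the other cKO members and 235 CPM in the other control members. Round spermatid markers summed to 1347 CPM in cKO and 1151 CPM in control, against 471 CPM in cKO and 308 CPM in control. Smcp stood at 33090 CPM in cKO and 43795 CPM in control, against 17352 CPM in the other cKO members and 19527 CPM in the other control members. Prm2 stood at 35181 CPM in cKO and 31069 CPM in control, against 137480 CPM in cKO and 162230 CPM in control. Prm2 is one of the 4 limited genes and Smcp a part of the late gene multiple, so neither level is read as a result. Without these members the log2 ratio of the 4-gene share was -0.36, a description only, because that share chose the members left out.

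Across all genes the centre of the comparison was not 0. Of 7436 genes with 50 or more UMIs in members of both libraries together, the median log2 ratio was 0.37, and it was 0.17 on totals that leave out the top 50 genes by level. In the next lower band the median was 0.39, in spermatocyte barcodes 0.05 and in somatic marker barcodes 0.04. Genes were therefore placed relative to the median: 1014 (13.6%) lay past 1.5-fold above it and 835 (11.2%) past 1.5-fold below it. Without centring, 2395 genes (32.2%) were past 1.5-fold higher and 236 (3.17%) past 1.5-fold lower. In what follows, above and below mean past 1.5-fold from this median, a rule of size with no test. Counts in each list stand beside these shares over all genes, 13.6% above and 11.2% below.

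The abundant transcripts named here lay under the centre, Ube2n excepted. Dbil5, a diazepam-binding-inhibitor-like gene of late spermatids, had 21733 CPM in cKO and 23191 CPM in control members (log2 -0.09). Gstm5, a glutathione transferase, had 11051 CPM in cKO and 13467 CPM in control (log2 -0.28), and Fabp9, a fatty-acid-binding protein of the sperm head, 8775 CPM in cKO and 9445 CPM in control (log2 -0.11). Gsg1 had 7795 CPM in cKO and 9359 CPM in control (log2 -0.26) and Hspb9, a small heat shock protein of testis, 7049 CPM in cKO and 6550 CPM in control (log2 0.11). Ube2n, a ubiquitin-conjugating enzyme, had 6234 CPM in cKO and 4632 CPM in control (log2 0.43). The unnamed gene 1700027A15Rik lay farther under the centre than Prm1, with 5244 CPM in the cKO and 9807 CPM in the control (log2 -0.90).

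Histone genes and histone removal showed no common shift. Of 18 testis histones and replacement variants 10 were measured, with a median 0.08 above the all-gene median, none above and 2 below. Those were H2al1a, with 0.620 CPM in cKO and 10.7 CPM in control, and H2al1g, with 0.775 CPM in cKO and 13.0 CPM in control, whose 3′ ends are nearly identical to those of other copies, so their counts are uncertain. H2al2a, a histone variant that opens nucleosomes to transition proteins in mice, had 1881 CPM in cKO and 1980 CPM in control members (log2 -0.07), and H3f3a, an H3.3 gene, 361 CPM in cKO and 212 CPM in control (log2 0.77). Of 24 genes of histone removal 13 were measured, with a median 0.01 under the all-gene median. Chd5, a chromatin remodeller needed for histone eviction in mice, was the 1 above, with 49.6 CPM in cKO and 15.6 CPM in control members (log2 1.67, 1.353 to 1.987), and it had a log2 ratio of 1.90 in the next band. Psme4, the activator of the spermatoproteasome, had 82.0 CPM in cKO and 54.9 CPM in control (log2 0.58), within 1.5-fold of the centre. Of 8 genes of DOT1L and its partners 5 were measured and none lay above or below. Mllt3, a reader in DOT1L complexes, had 25.3 CPM in cKO and 20.03 CPM in control (log2 0.33).

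Regulators of late RNA held single outliers. Of 15 genes of spermatid transcription 14 were measured, with a median 0.22 above the all-gene median. Papolb, the poly(A) polymerase of spermatids, was above, with 65.4 CPM in cKO and 18.7 CPM in control members (log2 1.81), and Spz1, a testis transcription factor, was at the limit below, with 3717 CPM in cKO and 4302 CPM in control (log2 -0.21). The somatic ratios were 1.12 for Papolb and -0.14 for Spz1. All 20 genes of RNA storage and translation delay were measured, with a median 0.08 above. Ybx1, a cold-shock RNA-binding protein, had 123 CPM in cKO and 42.7 CPM in control (log2 1.53), and Cnot7, a deadenylase, 6.51 CPM in cKO and 2.88 CPM in control (log2 1.18). Eif4e, the cap-binding factor, was below with 1352 CPM in cKO and 1635 CPM in control (log2 -0.27), and so was Ddx4 with 23.4 CPM in cKO and 28.4 CPM in control (log2 -0.28), whose interval (-0.59 to 0.03) reached 0 and whose somatic ratio was -1.01.

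Genes of the outer dense fibres, fibrous sheath and energy supply included several below the centre and none above it. Of all genes measured, 11.2% lay below and 13.6% above. All 19 genes of the outer dense fibres and fibrous sheath were measured, none above and 4 below, with a median 0.37 under the all-gene median, or 0.01 uncentred. Oaz3, an ornithine decarboxylase antizyme of spermatids, had 3480 CPM in cKO and 4776 CPM in control members (log2 -0.46). Spa17 had 5209 CPM in cKO and 6449 CPM in control (log2 -0.31), Akap4, the main protein of the fibrous sheath, 1669 CPM in cKO and 2022 CPM in control (log2 -0.28), and Odf3b 32.6 CPM in cKO and 46.0 CPM in control (log2 -0.50). Odf1, a core protein of the fibres, had 1067 CPM in cKO and 1153 CPM in control (log2 -0.11), within 1.5-fold of the centre. Of 23 glycolysis and energy genes 21 were measured, none above and 5 below, with a median 0.33 under the all-gene median, or 0.05 uncentred. They included Pgam2 with 949 CPM in cKO and 1289 CPM in control (log2 -0.44), Hk1, the first enzyme of glycolysis, with 625 CPM in cKO and 827 CPM in control (log2 -0.41), and Slc2a3, a glucose transporter of sperm, with 24.5 CPM in cKO and 55.6 CPM in control (log2 -1.18, -1.46 to -0.91). Pgk2, the testis phosphoglycerate kinase, had 1268 CPM in cKO and 1580 CPM in control (log2 -0.32). The somatic ratios were -0.58 for Pgk2, -0.39 for Pgam2, -0.10 for Hk1 and 0.66 for Slc2a3. Eno1 had 124 CPM in cKO and 316 CPM in control (log2 -1.35), but 87.0% of its 3′ end is shared with Eno1b. Gapdhs, the sperm form of glyceraldehyde-3-phosphate dehydrogenase, had 4928 CPM in cKO and 5573 CPM in control (log2 -0.18), within 1.5-fold of the centre.

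Other parts of the flagellum stayed near the centre apart from single genes. Of 16 mitochondrial sheath genes 15 were measured, none above and 2 below, with a median 0.14 under the all-gene median: Kif9, a kinesin of the axoneme, had 57.0 CPM in cKO and 112 CPM in control (log2 -0.97), and Armc12, which binds mitochondria to the sheath, 247 CPM in cKO and 293 CPM in control (log2 -0.25). The somatic ratios were -0.89 for Kif9 and -0.39 for Armc12. Of 33 axoneme genes 30 were measured, with a median 0.03 under. Cfap61, of the radial spokes, was above with 21.9 CPM in cKO and 10.97 CPM in control (log2 0.99), and Drc7, of the dynein regulatory complex, below with 4.81 CPM in cKO and 6.995 CPM in control (log2 -0.54, -1.23 to 0.13). Of 17 CatSper and other ion channel genes 15 were measured, with a median 0.05 under. Catsperg1 was below with 18.0 CPM in cKO and 22.8 CPM in control (log2 -0.34), and its interval reached 0.01.

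Head genes were likewise mixed. Of 31 acrosome genes 30 were measured, with a median 0.01 under the all-gene median, 3 above and none below. Smap2, which acts in vesicle transport to the acrosome in mice, had 14.6 CPM in cKO and 0.823 CPM in control (log2 4.15, 2.97 to 5.63). A Smap2 UMI was found in 6.34% of cKO and 0.393% of control members, under the 22.2% of cKO and 12.03% of control somatic marker barcodes, which may express it, so free RNA was not told apart from expression in members. Zpbp, a zona-binding protein, had 42.9 CPM in cKO and 13.99 CPM in control (log2 1.62), with a somatic ratio of 1.40, and Acr, the acrosomal protease, 28.8 CPM in cKO and 14.5 CPM in control (log2 0.99), with a somatic ratio of 0.61. All 18 genes of the perinuclear theca and head cytoskeleton were measured, with a median 0.28 under, none above and 1 below, Cypt2, with 20.8 CPM in cKO and 29.4 CPM in control (log2 -0.50). Of 24 manchette and head-shaping genes 21 were measured, with a median 0.02 above. Fam71b was above with 27.3 CPM in cKO and 11.7 CPM in control (log2 1.23) and Spem1, a neighbour gene of the maturation cluster, below with 957 CPM in cKO and 1202 CPM in control (log2 -0.33). Hook1, a manchette protein whose loss gives abnormal sperm heads in mice, had 801 CPM in cKO and 435 CPM in control (log2 0.88), within 1.5-fold of the centre.

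**Figure D4:**
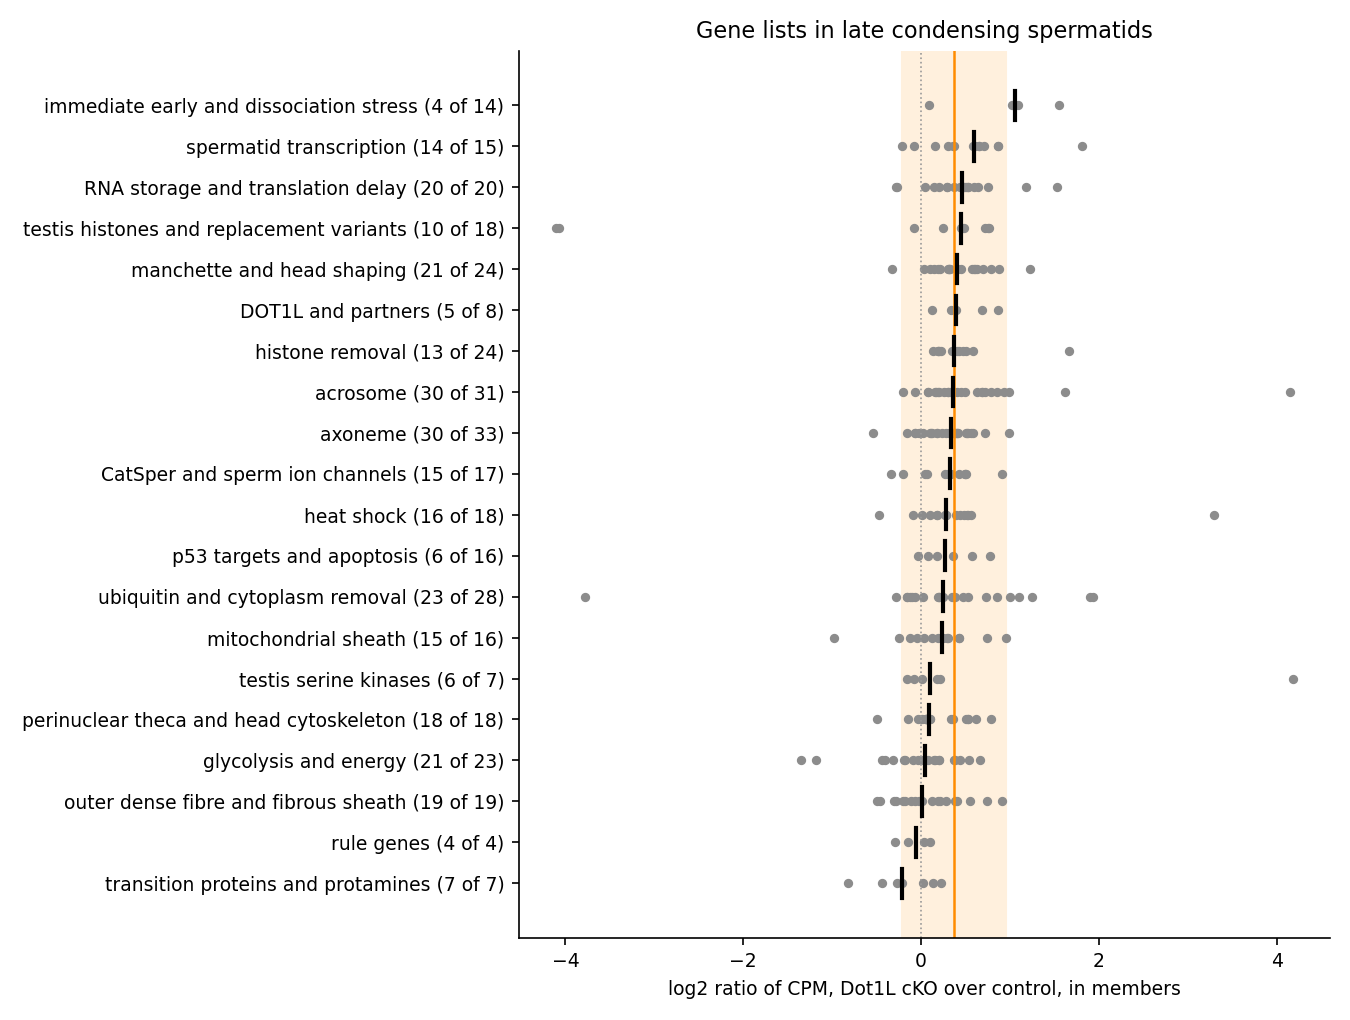
Log2 ratios of CPM in members, Dot1L cKO over control, for the measured genes of 20 lists (grey points, with the number measured of the number listed) and the list medians (black bars). The orange line is the all-gene median of 0.37 and the shaded span 1.5-fold around it. The transition protein and protamine list has the lowest median (-0.22), the immediate early list the highest (1.06), and the others fall in the span. The list of rule genes is drawn as a description only, because these genes chose the members.

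Kinase, turnover and stress genes held further large ratios of single genes. Of 7 testis serine kinase genes 6 were measured, with a median 0.28 under the all-gene median, and Tssk6 alone was above. Of 28 genes of ubiquitin and cytoplasm removal 23 were measured, with a median 0.12 under, 5 above and 2 below. March11 had 119 CPM in cKO and 31.3 CPM in control (log2 1.93) and Ube2j1, a ubiquitin-conjugating enzyme of the endoplasmic reticulum that mouse spermiogenesis requires, 888 CPM in cKO and 239 CPM in control (log2 1.90, 1.82 to 1.97). The somatic ratios were 1.29 for March11 and 0.79 for Ube2j1. Fbxo7, Siah1a and Cul4b were above at 6.201 to 11.8 CPM in the cKO, and March10 was below with 503 CPM in cKO and 610 CPM in control (log2 -0.28). Of 18 heat shock genes 16 were measured, with a median 0.10 under. Hspb1 was above with 18.9 CPM in cKO and 1.92 CPM in control (log2 3.30), with a somatic ratio of 3.52, and Hsph1 below with 9.77 CPM in cKO and 13.6 CPM in control (log2 -0.48). Of 16 p53 target and apoptosis genes 6 were measured, none above or below, with a median 0.10 under. Of 14 immediate early genes 4 were measured, with Jund (8.84 CPM in cKO and 3.02 CPM in control), Btg2 (5.27 CPM in cKO and 2.47 CPM in control) and Junb (8.06 CPM in cKO and 3.98 CPM in control) above, and the median 0.68 above the all-gene median was 0.80 above in somatic marker barcodes.

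The highest ratios included genes whose ratio was as high elsewhere in the testis. Tssk6, a kinase needed for histone-to-protamine exchange in mice (chr8:69902184-69903518), had 3782 CPM in cKO members and 208 CPM in control members, a log2 ratio of 4.18 (4.11 to 4.26), from 24398 UMIs in cKO and 1518 in control. A UMI was found in 99.2% of cKO and 60.3% of control members, against 39.4% of cKO and 3.76% of control somatic marker barcodes. The log2 ratio was 4.28 in the next band, 4.72 in spermatocyte barcodes and 4.06 in somatic marker barcodes. Scand1, a SCAN domain gene (chr2:156311847-156312704), had 193 CPM in cKO and 3.15 CPM in control (log2 5.93, 5.34 to 6.60), from 1244 UMIs in cKO and 23 in control, and a log2 ratio of 5.49 in spermatocyte and 5.23 in somatic marker barcodes. Its UMIs were found in 53.4% of cKO and 1.51% of control members, no more than the 55.6% of cKO and 3.01% of control somatic marker barcodes. Rabgef1, an exchange factor for endosomal Rab proteins, had 35.4 CPM in cKO and 0.823 CPM in control (log2 5.42), and was likewise found less in members (15.6% of cKO and 0.393% of control) than in somatic marker barcodes (31.4% of cKO and 5.26% of control).

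Higd1a had a high ratio in spermatids and a low one in the other cells compared. This mitochondrial protein of hypoxia had 461 CPM in cKO members and 46.6 CPM in control members, a log2 ratio of 3.31 (3.14 to 3.47), and 3.54 in the next band. In spermatocyte barcodes the log2 ratio was 0.13 and in somatic marker barcodes 0.45. Its UMIs were found in 75.8% of cKO and 19.5% of control members, against 44.9% of cKO and 34.6% of control somatic marker barcodes, which may express it themselves. Retreg1, a receptor for turnover of the endoplasmic reticulum, had 423 CPM in cKO and 44.7 CPM in control (log2 3.24), 2.13 in spermatocyte and 0.99 in somatic marker barcodes. Its UMIs were found in 59.2% of cKO and 17.6% of control members, against 22.2% of cKO and 12.03% of control somatic marker barcodes. Rab22a, an endosomal Rab, had 132 CPM in cKO and 14.7 CPM in control (log2 3.17), 1.56 in spermatocyte and 0.62 in somatic marker barcodes. March5, a ubiquitin ligase of mitochondria, had 65.3 CPM in cKO and 4.11 CPM in control (log2 3.99), 1.69 and 1.18 in those cells.

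A further 7 of the 15 highest had log2 ratios between 3.21 and 3.92 in members and between 1.67 and 3.01 in spermatocyte barcodes. They were Ankrd9, Dusp15, Tusc2, Fam174a, Pi4k2b, Rab2a and Ppp1cc. Dusp15, a phosphatase, had a higher ratio in somatic marker barcodes (4.07) than in members (3.69). Ppp1cc, a protein phosphatase 1 catalytic subunit essential for mouse sperm, had 206 CPM in cKO and 22.2 CPM in control (log2 3.21), but 69.8% of its 3′ end is shared with Ppp1ccb.

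Several of the lowest ratios belonged to genes that share their 3′ ends with other genes. Hist2h2aa1 (log2 -4.97), Bloc1s1 (log2 -2.76), Rpl35 (log2 -1.51), Tcp10c (log2 -1.12) and Eno1b (log2 -1.23) share 100%, 90.03%, 95.01%, 86.1% and 80.6% of theirs with other genes, so their counts are uncertain.

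Zfp367 and Ppp4r2, with 3′ ends of their own, were low in spermatids and not in spermatocyte barcodes. Zfp367, a zinc finger gene, had 8.22 CPM in cKO members and 46.6 CPM in control members, a log2 ratio of -2.50 (-2.95 to -2.08), with -2.13 in the next band, 0.25 in spermatocyte and -0.30 in somatic marker barcodes. Ppp4r2, a regulatory subunit of protein phosphatase 4, had 9.46 CPM in cKO and 38.5 CPM in control (log2 -2.03, -2.45 to -1.62), with -1.98 in the next band, -0.05 in spermatocyte and -0.54 in somatic marker barcodes. Slc2a3, named above, also had a spermatocyte ratio of -0.05. Bmp7, a secreted growth factor, had 12.2 CPM in cKO and 25.9 CPM in control (log2 -1.08) and a spermatocyte ratio of 0.33. Gprc5b had 59.4 CPM in cKO and 145 CPM in control (log2 -1.29) and -0.35 in spermatocyte barcodes, and Galm, a galactose epimerase, 15.97 CPM in cKO and 34.2 CPM in control (log2 -1.097) and -0.37. Nmnat3, an enzyme of mitochondrial NAD synthesis (log2 -1.44), and Trim54 (log2 -1.25) were as low in spermatocyte barcodes, at -1.46 and -1.09.

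**Figure D5:**
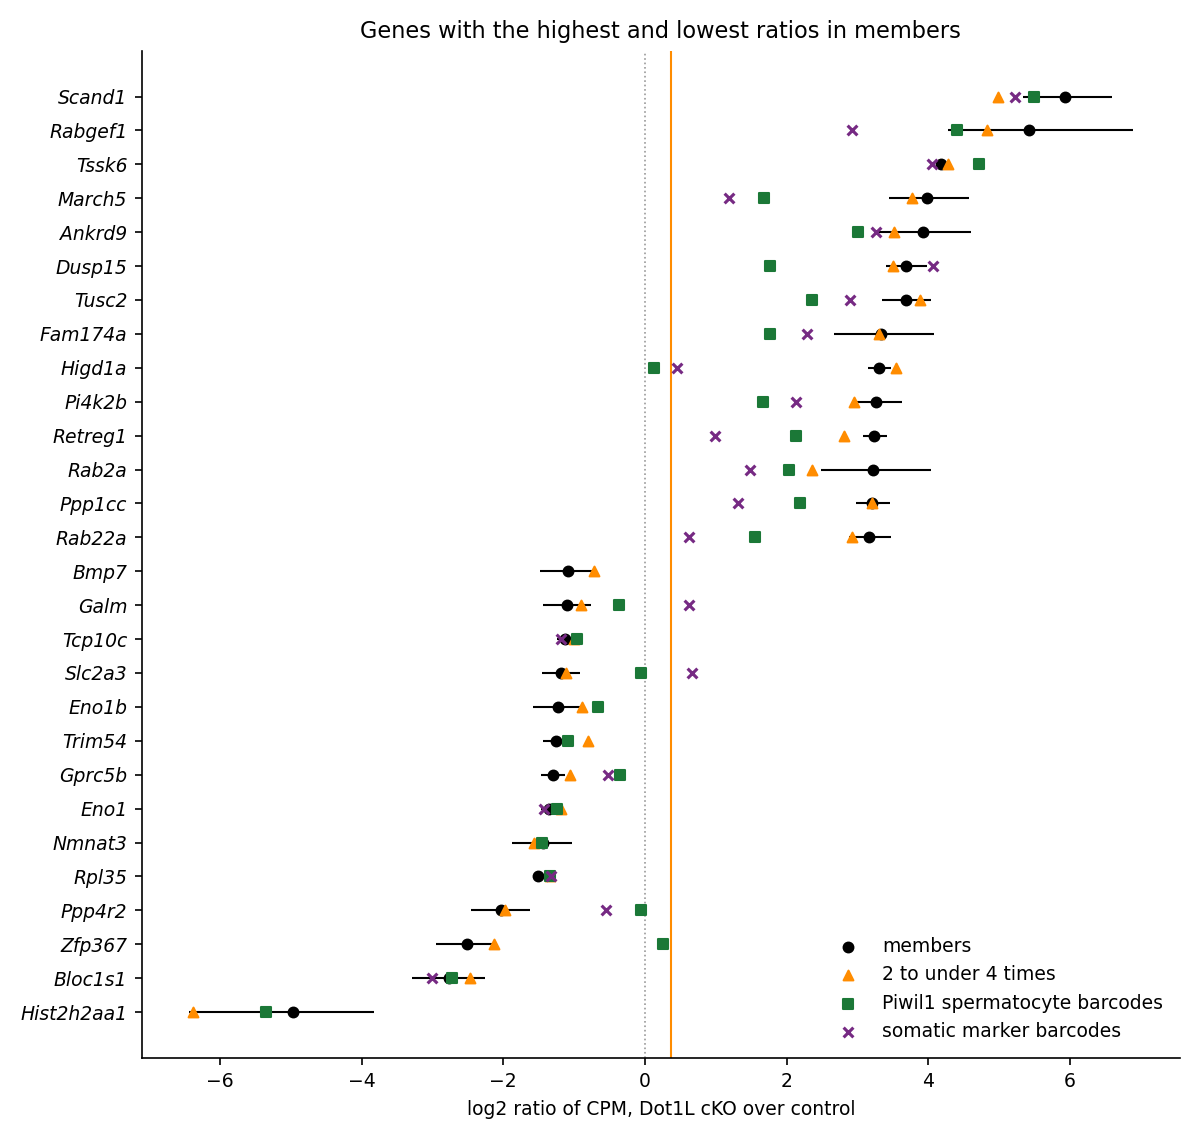
Log2 ratios of CPM, Dot1L cKO over control, for 14 of the 15 genes with the highest and 14 of the 15 with the lowest ratios in members (black circles with 95% counting intervals), in the band of 2 to under 4 times (orange triangles), in spermatocyte barcodes (green squares) and in somatic marker barcodes (purple crosses), where measured. Higd1a (3.31), Zfp367 (-2.50) and Ppp4r2 (-2.03) keep their ratio in the next band and are near 0 in spermatocyte barcodes, while Tssk6 has like ratios in every kind of barcode.

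Members are set beside the next band without a test, because the late gene share chose the cells. Of 8764 genes measured, 1559 in the cKO (17.8%) and 1947 in the control (22.2%) were past 1.5-fold higher in members, 1084 of them (12.4%) in both. Past 1.5-fold lower were 1999 in the cKO (22.8%) and 2269 in the control (25.9%), 1675 of them (19.1%) in both. Among the highest were Hk1, by 1.33 (log2) in the cKO and 1.62 in the control, Osbp2, an oxysterol-binding protein, by 1.32 in cKO and 1.503 in control, Tbc1d20, a Rab GTPase activator, by 1.32 in cKO and 1.41 in control, and Azin2, an antizyme inhibitor, by 1.28 in cKO and 1.41 in control. The glycolytic enzyme Tpi1 (1.23 in cKO and 1.32 in control), the sorbitol dehydrogenase Sord (1.22 in cKO and 1.41 in control), the phosphorylase kinase subunit Phkg2 (1.25 in cKO and 1.37 in control) and Dbil5 (1.201 in cKO and 1.31 in control) followed.

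Genes lower in members than in the next band included chromatin proteins. H2al3, a histone variant, was lower by 3.04 (log2) in the cKO and 2.92 in the control, and Hmgb4, a chromatin protein of spermatids, by 2.76 in cKO and 3.06 in control. Fam71f1 was lower by 2.96 in cKO and 3.28 in control, Spata19, a mitochondrial sheath protein, by 2.51 in cKO and 2.62 in control, and Tex37 by 2.68 in cKO and 3.31 in control. All 18 genes of the perinuclear theca and head cytoskeleton were measured, and 9 were lower and 1 higher, with medians of -0.78 in the cKO and -1.01 in the control. The outer dense fibre and fibrous sheath list went the other way, with 9 of 19 higher and 4 lower, at medians of 0.60 in the cKO and 0.61 in the control, and 7 of 22 glycolysis genes were higher and 1 lower, at medians of 0.46 in the cKO and 0.53 in the control.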

How the data were processed

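Single-cell RNA of dissociated testis was measured in 2 libraries. The authors deposited UMI counts per gene and barcode (32285 genes), and per the file headers the tool was Cell Ranger 7.0.0. The submitters' processing notes name the build mm10 and Seurat 4.1.0. How barcodes were chosen is not given in the sources used here, and every deposited barcode had 500 or more UMIs. No deposited file used here holds a cell annotation, so the cells may differ from classes of the study. The members, gene lists and markers were chosen with earlier results of these data known.

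UMIs were summed over members of each library and divided by their total. Genes with 50 or more UMIs over both libraries were measured. Log2 ratios carry exact conditional Poisson intervals, shares exact Clopper-Pearson intervals, both at 95%, and a ratio past 1.5-fold from the all-gene median is a rule of size. Depth ranged from 1504 to 26130 UMIs per member. Python 3.11.15, numpy 2.4.6, scipy 1.17.1, pandas 2.3.3 and matplotlib 3.10.9 were used, and the ratio step was checked on simulated counts. Somatic marker barcodes had 10 or more UMIs and 1% or more of their UMIs from somatic markers, limits set after the data were seen.

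Named genes were the rule genes, Car2, Dot1l, Tnp1, Tnp2, Prm1 and Prm2, and the 25 most abundant. Among genes with 100 or more UMIs and 20 CPM in the higher library, they were also the 15 highest and 15 lowest ratios between libraries and between members and the next band. Up to 4 genes of each of 20 lists farthest from the all-gene median completed them, 148 in all, of which the text gives a part. Some of them are not reported here. Predicted, clone, mitochondrial and hemoglobin symbols were passed over, 5 among the highest and 10 among the lowest ratios. Odf1, Pgk2, Siah1a, Cul4b and March10 are given as members of their lists. In all, 3 list genes did not match 1 symbol and were left out. Sharing of a 3′ end was scored as the percent of 40-nucleotide words from the last 400 nucleotides of the longest transcript that another gene's transcripts hold (GENCODE vM21, 32235 genes matched by identifier).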

Additional observations from a re-analysis of the deposited data

Results flagged for a closer look

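Barcodes outside the depth limit held further cells with the late gene share of members. From 500 to under 1500 UMIs, 164 cKO and 293 control barcodes reached 4 times the pooled share; they entered no comparison, and at this depth a few UMIs decide the multiple.

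The Tnp1 ratio turned sign between bands of the same contrast. Its log2 ratio was 0.19 in the 4 to 6 band, -0.75 in the 6 to 8 band and -0.41 at 8 times and over. Inside the 4 to 6 band, pooled Tnp1 was higher in the cKO only at 4 to 5 times (9033 CPM in cKO and 7690 CPM in control). At 5 to 6 times it was lower (2472.5 CPM in cKO and 3084.6 CPM in control). Levels in the upper bands (1480 and 1980 CPM in the cKO, 2488 and 2633 CPM in the control) lay under those of somatic marker barcodes (2112 CPM in the cKO and 3352 CPM in the control, log2 -0.67). With the somatic ratio subtracted, Tnp1 in all members lay 0.47 above the all-gene median. The intervals cover counting error only, and the difference between bands was not tested across animals.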

How the results depend on the processing

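No paired analysis was possible because each genotype has 1 library, and for the same reason no replicate could be left out. The log2 ratio of the 4-gene transition protein and protamine share kept its direction under every setting run except subtraction of the log2 ratio of somatic marker barcodes, chosen after seeing the data, which gave 0.32; subtraction of their share in each library, likewise chosen later, gave -0.34. It was -0.43 at a threshold of 3 times and -0.36 at 6 times, -0.36 at a minimum of 3000 UMIs, -0.51 without these genes in the totals behind the late gene share, and -0.24 with each library's own pooled share. It was -0.41 both with members weighted equally and with cKO members reweighted to the control bands, -0.59 without the 50 most abundant genes in the totals and -0.76 under median-of-ratios scaling. The all-gene median ratio was 0.45, 0.35, 0.32, 0.46, 0.34, 0.41, 0.39 and 0.17 under the first 8 of these settings, has no value under median-of-ratios scaling, which sets it to 0, and was 0.42 with no minimum per gene and 0.27 with a minimum of 500 UMIs. Those minimums gave 6003 and 218 genes above and 4900 and 150 below, as more or fewer genes were measured. The ratio of member shares was -0.28 at 3 times, -0.64 at 6 times, -0.54 without transition protein and protamine UMIs in the totals and -0.067 with each library's own pooled share. A further 2 settings were chosen after seeing the data. Members under 10% transition protein and protamine UMIs left out gave -0.36 for the 4-gene share and 0.36 for the all-gene median. The 4-gene share itself chose the members left out there, so its -0.36 is a description only. Members with a Sertoli marker UMI left out gave -0.40 for the 4-gene share and -0.64 for the member share. Relative to the all-gene median, Btg2 reversed to -0.19 at 6 times, Cfap61 to -0.050 without transition protein and protamine UMIs in the totals, and Tnp2 to 0.36 with each library's own pooled share. With the ratio of somatic marker barcodes subtracted, Prm1 moved to -0.12, Tnp2 to -0.0062 and Prm2 to -0.14, all within 1.5-fold of the median. Tnp1 moved to 0.47. Subtracting a ratio takes no account of level, so this setting cannot tell how much of a call is free RNA. Under the same subtraction the immediate early list reversed to -0.035, Dusp15 to -0.71, Tssk6 to -0.21, Junb to -0.37 and Zpbp to -0.11. Spem1 reversed to 0.10, Ddx4 to 0.40, Prm3 to 0.029, Itpr3os to 0.10 and Cypt2 to 0.041, and the cause was not tested. Genes under about 50 UMIs are limited by counting error.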
